A study of Mus musculus with 2 samples.

Results

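Rbm24, Sorbs2, Slc38a4, Kcne2, Kcnj15, Wfdc1, Rassf2 and Ociad2 are 8 genes picked from the data. They were chosen for higher counts in the alveolar epithelium of mouse lung with Nkx2.1 Cre and floxed Lkb1. All 8 symbols were found in both libraries' gene lists, among 31053 genes in all. Because the same alveolar counts chose the genes, their ratios in alveolar cells are a description and carry no test.

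Unsorted lung cells of 5-week-old mice were measured with a droplet method for single-cell RNA. One group carried Nkx2.1 Cre with floxed Lkb1 (Nkx2.1 Cre;Lkb1f/f, the Cre library), and the other carried the floxed alleles alone (Lkb1f/f, the control library). No library carried Cre without the floxed alleles, so Cre itself and loss of Lkb1 cannot be told apart. Nkx2-1 is a transcription factor of the lung epithelial lineage, so its driver directs recombination to epithelium and not to blood, vessel or stromal cells, and the floxed alleles are shared by both groups. Each genotype gave 1 library, pooled from 3 mice, so mice cannot be told apart and no test across samples was possible. Intervals in brackets are exact at the 95% level and speak of counting error alone.

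Alveolar type 2 (AT2) cells make surfactant and serve as progenitors of alveolar type 1 (AT1) cells, the thin cells across which gas is exchanged. LKB1 is a kinase that switches on AMPK and its relatives. Among these, the salt-inducible kinases hold the CRTC coactivators of the transcription factor CREB in the cytoplasm. The 8 genes have varied known roles: RNA binding and the cytoskeleton (Rbm24, Sorbs2), transport of amino acids and potassium (Slc38a4, Kcne2, Kcnj15), secretion (Wfdc1), kinase scaffolding (Rassf2) and mitochondria (Ociad2).

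Cells were assigned one by one from marker genes that did not include any of the 8, and the classes are called AT2-like, AT1-like and so on for that reason. AT2-like cells numbered 1797 in the Cre library and 1465 in the control library, with medians of 7942 and 10248 UMIs (molecular barcodes, counted once for each transcript caught) per cell. There were 299 Cre and 114 control AT1-like cells, at medians of only 1022 and 1016.5 UMIs. All 10 AT2 markers and all 10 AT1 markers were at least 2-fold above the other cells of the same library in their own class. The same markers assigned the cells, so this is no independent check of the classes. The Cre library held 81598779 UMIs in 16821 barcodes and the control library 74219499 UMIs in 13587 barcodes. They shared 68 barcode sequences, of which 7 Cre and 5 control cells were AT2-like, and the median log2 ratio over the 8 genes was 1.37 in AT2-like cells and 2.77 in AT1-like cells with and without the shared barcodes. Stk11, the gene of LKB1, stood at 29.5 CPM (UMIs per 1e6 of the class sum) in Cre and 49.1 CPM in control AT2-like cells, a ratio of 0.601 (0.532 to 0.678). In club-like cells, airway secretory cells also of the epithelium, it stood at 16.9 CPM in Cre and 15.9 CPM in control cells, a ratio of 1.07 (0.805 to 1.41). Counts from the 3′ end may lie outside the deleted part, so these values do not check the genotype.

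Promoter sequences are shown for the members whose first listed promoter holds the half-site of the CREB response element, TGACG on either strand, since CREB is the factor that the LKB1 pathway restrains through CRTC. They come from RefSeq on GRCm38.p6 and run from 250 bases before to 50 after the listed start, 5′ to 3′ on the gene's strand, with the half-sites in capitals (CGTCA is the half-site on the other strand).
Rbm24, chr13:46418050-46418349, plus strand: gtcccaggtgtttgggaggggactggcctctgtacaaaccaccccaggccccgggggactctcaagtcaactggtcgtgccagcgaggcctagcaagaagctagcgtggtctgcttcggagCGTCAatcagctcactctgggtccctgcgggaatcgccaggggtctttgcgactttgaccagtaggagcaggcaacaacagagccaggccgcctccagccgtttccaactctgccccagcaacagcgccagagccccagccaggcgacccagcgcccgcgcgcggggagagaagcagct
Kcne2, chr16:92292139-92292438, plus strand: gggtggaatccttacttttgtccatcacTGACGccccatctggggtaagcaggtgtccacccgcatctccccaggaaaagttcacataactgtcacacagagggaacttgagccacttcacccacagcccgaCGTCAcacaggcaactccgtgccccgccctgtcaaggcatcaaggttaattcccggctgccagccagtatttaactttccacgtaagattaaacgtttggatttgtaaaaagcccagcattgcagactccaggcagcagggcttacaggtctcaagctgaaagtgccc
Rassf2, chr2:132030275-132030574, minus strand: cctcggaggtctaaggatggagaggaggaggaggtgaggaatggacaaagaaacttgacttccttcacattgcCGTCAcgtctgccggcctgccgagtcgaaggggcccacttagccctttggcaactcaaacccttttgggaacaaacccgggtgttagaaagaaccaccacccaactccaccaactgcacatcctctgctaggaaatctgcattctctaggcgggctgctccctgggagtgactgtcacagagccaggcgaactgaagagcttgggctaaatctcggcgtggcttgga

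RefSeq's table held a first promoter for 7 of the 8 genes, all but Wfdc1. The half-site was in 3 of these 7, against 21.0% of 27025 first promoters outside chromosome 18, and Kcne2 had 2 copies. The full element TGACGTCA, which contains the half-site, was in 0 of the 7 and in 1.88% of all. The AP-1 motif TGANTCA and the SOX core AACAAT were in 0 of the 7, against 7.93% and 10.9% of all promoters. CCAAT was in 3 of the 7 (Sorbs2, Slc38a4 and Ociad2) and in 37.9% of all, and TATAAA in 2 (Kcnj15 and Ociad2) and in 14.2% of all. Both strands were searched for each motif. These are letter matches and not sites of binding. The 8 genes lie on 6 chromosomes, with Kcne2 and Kcnj15 both on chromosome 16 and Sorbs2 and Wfdc1 both on chromosome 8. Sorbs2, Kcnj15 and Wfdc1 overlap antisense genes that are also in the gene list, and whether counting used the strand is not given, so their counts are uncertain to that extent.

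In AT2-like cells 7 of the 8 genes were at least 2-fold higher in the Cre library, the exception being Ociad2. Over all 11208 genes with at least 50 UMIs in this class, 6.80% were higher by that much and 1.89% lower by as much. The median over the 8 of log2((Cre CPM + 5)/(control CPM + 5)) was 1.37, against 0.17 over all 11208 genes. These values chose the genes and nothing is read from them. Rbm24, Sorbs2 and Wfdc1 stood at 0.214, 0.998 and 1.92 CPM in control AT2-like cells, and the other 5 genes at 17.2 to 225 CPM.

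Rbm24 encodes an RNA-binding protein known for splicing and mRNA stability in heart and skeletal muscle. It had 1159 UMIs in Cre and 3 UMIs in control AT2-like cells, which is 78.6 CPM (74.1 to 83.2) and 0.214 CPM (0.0441 to 0.625), a ratio of 368 (125 to 1785). Control cells were thus close to 0. Its UMIs were spread over 589 of 1797 Cre cells, and the 10 richest cells held 8.54% of them. The gene lies at chr13:46418434-46431095 on the plus strand (GRCm38, as for all genes here).

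Sorbs2, at chr8:45507788-45827906 on the plus strand, encodes a sorbin homology adaptor that links the actin cytoskeleton to signalling proteins. It stood at 89.8 CPM (85.0 to 94.7) in Cre and 0.998 CPM (0.545 to 1.67) in control AT2-like cells, a ratio of 89.99 (53.4 to 165). The control value rests on 14 UMIs in 10 cells, against 1324 UMIs in 712 Cre cells. By log2 ratio Rbm24 had rank 9 and Sorbs2 rank 10 among the 11208 genes.

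Slc38a4, at chr15:96994820-97055956 on the minus strand, encodes a sodium-coupled transporter of neutral amino acids, known from liver and placenta and imprinted in the mouse. It stood at 142 CPM (136 to 148) in Cre and 17.2 CPM (15.1 to 19.5) in control AT2-like cells, a ratio of 8.27 (7.23 to 9.49). Control cells held it at a low level, in 197 of 1465 cells, against 988 of 1797 Cre cells.

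Both potassium channel genes were already present in control AT2-like cells. Kcne2 (chr16:92292389-92298129, plus strand) encodes a single-span subunit that modifies KCNQ1 and other channels, and is known from gastric parietal and thyroid cells. It stood at 141 CPM (135 to 147) in Cre and 64.7 CPM (60.6 to 69.0) in control cells, a ratio of 2.18 (2.02 to 2.36). Kcnj15 (chr16:95257558-95300260, plus strand), an inward rectifier of epithelia, stood at 604 CPM (592 to 617) in Cre and 225 CPM (217 to 233) in control cells, a ratio of 2.68 (2.58 to 2.79). Kcne2 was seen in 981 of 1797 Cre and 575 of 1465 control cells, and Kcnj15 in 1581 and 1092.

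Wfdc1 (chr8:119666365-119688222, plus strand) encodes a small secreted protein with the WAP domain of protease inhibitors. Its counts in AT2-like cells were low in both libraries, at 12.4 CPM (10.7 to 14.3) in Cre and 1.92 CPM (1.27 to 2.80) in control cells, a ratio of 6.45 (4.29 to 10.1). Rassf2 (chr2:131989415-132030258, minus strand) encodes a Ras association domain protein that binds the MST kinases, and stood at 90.04 CPM (85.3 to 95.02) in Cre and 36.8 CPM (33.7 to 40.2) in control cells, a ratio of 2.44 (2.21 to 2.71).

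Ociad2 (chr5:73322199-73341028, minus strand), which encodes a protein of the mitochondrial inner membrane, goes against the common description of the set in AT2-like cells. It stood at 133 CPM (127 to 139) in Cre and 105 CPM (100 to 111) in control cells. The ratio of 1.26 (1.18 to 1.35) lies near the median ratio of 1.19 over all genes of the class, and it had rank 3139. Its higher level in alveolar epithelium was in AT1-like cells, as given below.

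**Figure D1:**
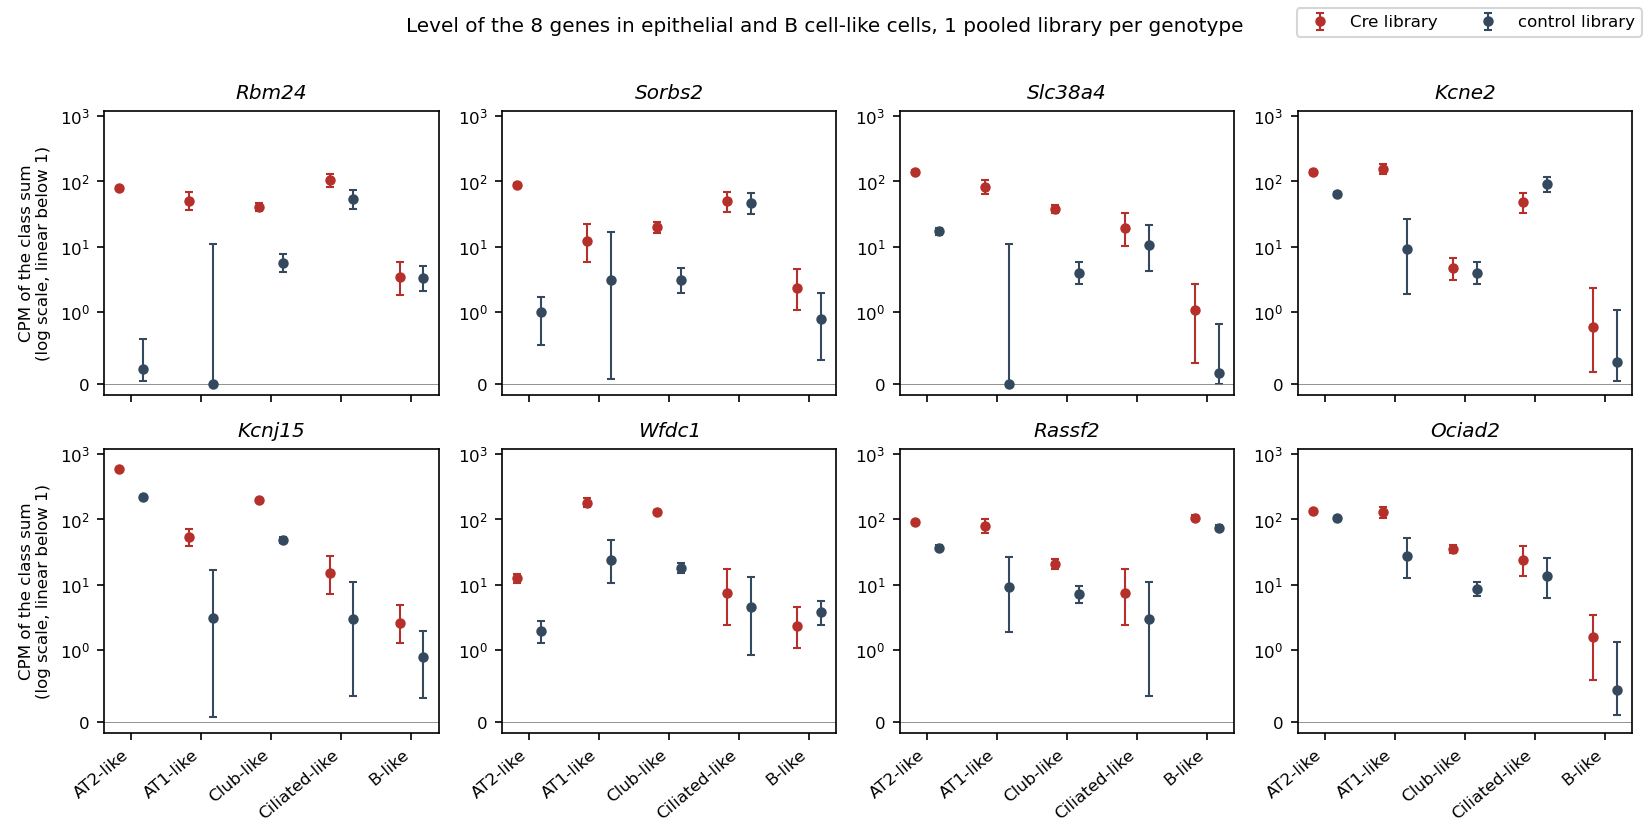
Level of each gene in CPM (log axis, linear below 1) in AT2-like, AT1-like, club-like, ciliated-like and B cell-like cells, Cre left and control right, with exact 95% intervals of the counts. Rbm24 and Sorbs2 stood at 78.6 and 89.8 CPM in Cre AT2-like cells, against under 1 CPM in control cells, while Ociad2 stood at 133 CPM in Cre and 105 CPM in control AT2-like cells.

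In AT1-like cells the class sums were small, 829838 UMIs in the Cre and 331345 UMIs in the control library. Only 5 of the 8 genes reached 50 UMIs, and all 5 were at least 2-fold higher in Cre cells, against 5.31% of 3766 genes measured there. A gene absent from control cells reached that number only through the Cre library, so the count supports nothing. Kcne2 had 128 UMIs (154 CPM, 129 to 183) in Cre and 3 UMIs (9.05 CPM, 1.87 to 26.5) in control AT1-like cells, a ratio of 17.04 (5.70 to 83.7). Slc38a4 had 68 UMIs, 81.9 CPM, in Cre and 0 UMIs in control cells, at least 9.05-fold higher with the control count of the class set to 3 UMIs.

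Wfdc1 had 151 UMIs in Cre AT1-like cells, the most of the set there, and 8 in control cells, which is 182 CPM (154 to 213) and 24.1 CPM (10.4 to 47.6), a ratio of 7.54 (3.73 to 17.8). Rassf2 stood at 79.5 CPM (61.5 to 101) in Cre and 9.05 CPM (1.87 to 26.5) in control cells, a ratio of 8.78 (2.88 to 43.7). Ociad2 stood at 129 CPM (106 to 156) in Cre and 27.2 CPM (12.4 to 51.6) in control cells, a ratio of 4.75 (2.41 to 10.7). The Ociad2 intervals overlap between AT1-like and AT2-like cells of the Cre library, but not between the same classes of the control library.

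The other members were too sparse in AT1-like cells to be counted. Rbm24 had 42 UMIs in Cre and 0 in control cells, at least 5.59-fold higher. Kcnj15 had 44 UMIs in Cre and 1 in control cells, a ratio of 17.6 with an interval from 2.99 to 709. Sorbs2 had 10 UMIs in Cre and 1 in control cells, and the interval of its ratio of 3.99, from 0.568 to 173, includes 1.

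The AT1-like counts came from few cells. Rbm24 was found in 17 of 299 Cre AT1-like cells, and the 10 richest held 83.3% of its UMIs. For Kcnj15 that share was 72.7%, for Kcne2 46.9% and for Wfdc1 29.1%. The 99 deepest Cre AT1-like cells, with 1740 to 20329 UMIs, held 39 of the 42 Rbm24 UMIs and 66 of the 68 Slc38a4 UMIs.

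Sftpc, the surfactant protein gene that defines AT2 cells, was also found in AT1-like cells. It stood at 3234 CPM in Cre and 2094 CPM in control AT1-like cells, and at 677 and 741 CPM in B cell-like cells of the same libraries. If every Sftpc UMI of the Cre AT1-like cells were AT2 RNA carrying the 8 genes in their AT2 ratio, it would bring 1.37 of the 42 Rbm24 UMIs, 10.5 of the 44 Kcnj15 UMIs, 1.56 of the 10 Sorbs2 UMIs and 0.216 of the 151 Wfdc1 UMIs. For the other members the number was between 1.57 and 2.47, of at least 66 UMIs. The count covers RNA from AT2 cells alone. It must be small for Wfdc1, which stood at 12.4 CPM in Cre AT2-like and 206 CPM in Cre general capillary-like cells. Rassf2 likewise stood at 107 CPM in Cre B cell-like cells. RNA carried over from such other classes was not tested.

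**Figure D2:**
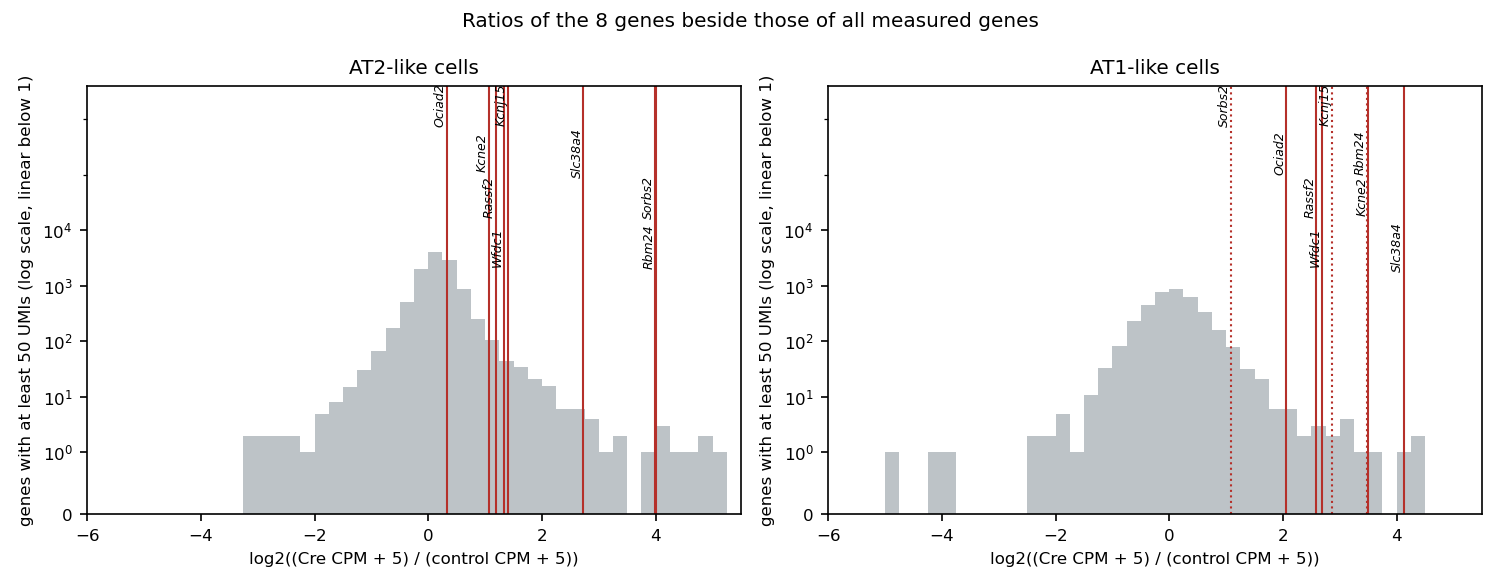
Number of genes (log axis, linear below 1) by log2 ratio of Cre over control with 5 CPM added, in AT2-like (left) and AT1-like cells (right), for genes with at least 50 UMIs. Red lines mark the 8 genes, dotted where a gene had under 50 UMIs; Ociad2 stood at 0.32 (rank 3139) in AT2-like cells and at 2.06 (rank 20) in AT1-like cells.

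Several marker sums of other cell types also differed between Cre and control AT2-like cells. The 7 alveolar macrophage markers summed to 441 CPM in Cre and 27.6 CPM in control AT2-like cells, the 6 erythroid markers to 1109 and 110 CPM, and the 7 group 2 innate lymphoid markers, which include Areg, to 524 and 179 CPM. No marker of these 3 lists was at 0 in either library. The 7 club markers summed to 1647 CPM in Cre and 3813 CPM in control cells, and the 10 AT2 markers to 199313 and 272827 CPM. The members themselves stood at most at 2.48 CPM in Cre alveolar macrophage-like cells, apart from 6.30 CPM of Rassf2. In Cre erythroid-like cells they stood at most at 16.5 CPM. The 9 cardiomyocyte markers summed to 1.90 CPM in Cre and 4.56 CPM in control AT2-like cells, with 1 marker at 0 in Cre and 2 in control cells. In AT1-like cells the 6 neutrophil markers summed to 79.5 CPM in Cre (1 at 0) and 1527 CPM in control cells (0 at 0), the 7 alveolar macrophage markers to 260 (4 at 0) and 42.3 CPM (3 at 0), and the 10 AT2 markers to 4303 (0 at 0) and 2722 CPM (1 at 0). The part of these differences in the ratios was not tested.

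Most AT2-like cells of both libraries lay in 1 cluster. This one of 49 clusters, made from all variable genes without integration, held 88.1% of Cre and 83.5% of control AT2-like cells. Within it Rbm24 stood at 81.3 CPM in Cre and 0.153 CPM in control cells, and Sorbs2 at 90.4 and 0.689 CPM. The ratios there were 8.06 (7.04 to 9.26) for Slc38a4, 2.15 (1.98 to 2.33) for Kcne2 and 1.28 (1.19 to 1.37) for Ociad2.

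Club-like cells were not used to choose the genes. Nkx2.1 Cre is active in their lineage too. They came from the same pooled libraries, so they are no independent replicate. In them 7 of the 8 genes were at least 2-fold higher in the Cre library, and the exception was Kcne2, not Ociad2. The background was high: 18.5% of 8350 genes were at least 2-fold higher, and the median ratio over all genes was 1.53. The median log2 ratio over the 8 was 1.76, against 0.43 over all genes. This class held 256 Cre and 222 control cells, with 5844249 and 7050494 UMIs.

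Slc38a4 stood at 37.5 CPM (32.7 to 42.8) in Cre and 3.97 CPM (2.64 to 5.74) in control club-like cells, a ratio of 9.44 (6.35 to 14.5). Wfdc1, low in AT2-like cells, stood at 131 CPM (122 to 141) in Cre and 18.01 CPM (15.02 to 21.4) in control club-like cells, a ratio of 7.28 (6.02 to 8.85). Rbm24 stood at 40.7 CPM (35.7 to 46.2) in Cre and 5.67 CPM (4.05 to 7.73) in control cells, a ratio of 7.18 (5.12 to 10.3). The control club-like level overlaps that of control B cell-like cells, 3.28 CPM (2.06 to 4.97). It lies above that of control T cell-like cells, 0.731 CPM (0.199 to 1.87). What part of it is free RNA was not tested.

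Sorbs2 stood at 19.8 CPM in Cre and 3.12 CPM in control club-like cells, a ratio of 6.36 (4.01 to 10.5), and Kcnj15 at 198 and 48.8 CPM, a ratio of 4.05 (3.59 to 4.59). Ociad2 stood at 34.9 CPM in Cre and 8.65 CPM in control cells, a ratio of 4.03 (3.02 to 5.46). Unlike in AT2-like cells, its intervals there lie far apart. Rassf2 stood at 21.05 CPM in Cre and 7.09 CPM in control cells, a ratio of 2.97 (2.12 to 4.21). With each cell thinned to 1000 UMIs its direction turned, to a log2 ratio of -0.19 from 4 UMI-holding cells in each library. Kcne2 stood at 4.62 CPM (3.04 to 6.72) in Cre and 3.97 CPM (2.64 to 5.74) in control club-like cells, a ratio of 1.16 (0.660 to 2.05), below the median of the class.

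Clca1, a gene of goblet cells, was among the 10 leading genes of the Cre but not of the control club-like class, and Muc5b, a mucin gene, among those of both. A cluster numbered 34 held 24.2% of the Cre and 9.91% of the control club-like cells, and cluster 18 held 68.8% and 77.0%. Within cluster 18 the ratios were 10.8 (7.22 to 16.9) for Slc38a4, 8.96 (6.92 to 11.8) for Wfdc1, 8.62 (5.70 to 13.5) for Rbm24 and 8.004 (3.30 to 23.4) for Sorbs2. Kcne2 rested on 14 Cre and 7 control UMIs there, a ratio of 3.001 (1.13 to 8.79). Within cluster 34, with 62 Cre and 22 control cells, Kcnj15 stood at 275 CPM in Cre and 26.7 CPM in control cells, a ratio of 10.3 (7.03 to 15.7). The members that differed between the libraries in club-like cells did so within both clusters where counts allowed a ratio, Rassf2 in cluster 34 excepted at 1.83 (0.554 to 7.77).

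In ciliated-like cells only Rbm24, Sorbs2 and Kcne2 reached 50 UMIs among the 63 Cre and 87 control cells, and 0 of these 3 were at least 2-fold higher, against 2.24% of 4469 genes. Rbm24 stood at 105 CPM (81.6 to 132) in Cre and 53.9 CPM (37.8 to 74.7) in control ciliated-like cells, a ratio of 1.94 (1.28 to 2.99). Sorbs2 stood at 49.3 CPM (34.0 to 69.3) in Cre and 46.4 CPM (31.6 to 65.9) in control cells, a ratio of 1.06 (0.631 to 1.79). Kcne2 ran the other way, at 47.8 CPM (32.7 to 67.5) in Cre and 89.9 CPM (68.6 to 116) in control cells, a ratio of 0.532 (0.335 to 0.830). Control ciliated-like cells thus held Rbm24 and Sorbs2, which were near 0 in control AT2-like cells.

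Outside the epithelium each gene had its own pattern, among 22 classes with at least 50 cells in each library. Rbm24 stood in smooth muscle-like cells at 60.3 CPM (36.8 to 93.1) in the Cre and 52.1 CPM (29.8 to 84.6) in the control library. Sorbs2 was highest in venous endothelial-like cells, at 141 CPM (115 to 170) in the Cre and 123 CPM (96.1 to 154) in the control library. Wfdc1 was highest in general capillary-like cells, at 206 CPM (165 to 254) in the Cre and 229 CPM (194 to 268) in the control library. The Cre value overlaps that of Cre AT1-like cells, 182 CPM (154 to 213). For these 3 pairs of levels the intervals overlap between the libraries. Others did differ. Rassf2 in adventitial fibroblast-like cells stood at 23.8 CPM in Cre and 8.72 CPM in control cells, from 60 and 15 UMIs. In nonclassical monocyte-like cells it stood at 33.9 and 16.7 CPM. Wfdc1 had ratios of 2.76 (1.15 to 7.59) in venous endothelial-like and 2.49 (1.02 to 5.90) in neutrophil-like cells. Kcnj15 had ratios of 6.16 (1.55 to 53.3) in alveolar and 2.87 (1.05 to 9.72) in adventitial fibroblast-like cells. Other sparse pairs also differed. Where both libraries had counts, the only interval below 1 was that of Rassf2 in interstitial macrophage-like cells, given below. No background over all genes was taken outside the epithelium.

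Slc38a4 in lymphatic-like cells stood at 24.6 CPM (11.8 to 45.2) in the Cre library, under the 142 CPM of AT2-like cells, and at 24.02 CPM (10.98 to 45.6) in the control library, which overlaps the 17.2 CPM of AT2-like cells. Rassf2 was widespread in leukocytes. B cell-like cells held it at 107 CPM (96.6 to 118) in the Cre and 74.6 CPM (68.2 to 81.4) in the control library, a ratio of 1.43 (1.252 to 1.63). Its ratios were 1.93 (1.59 to 2.36) in T cell-like, 1.86 (1.20 to 2.93) in natural killer-like and 1.49 (1.19 to 1.85) in neutrophil-like cells. In alveolar macrophage-like, classical monocyte-like and group 2 innate lymphoid-like cells the intervals of the ratio included 1. Interstitial macrophage-like cells held Rassf2 at 53.2 CPM in the Cre and 73.3 CPM in the control library, a ratio of 0.726 (0.570 to 0.927). In erythroid-like cells, outside the lineage, Kcnj15 had 28 UMIs in Cre and 0 in control cells, at least 2.90-fold higher. Rbm24 had 14 and 0 UMIs there and Rassf2 29 and 2 UMIs, and none of the 8 reached 50 UMIs. Sftpc stood at 1949 CPM in Cre erythroid-like cells, against 677 CPM in Cre B cell-like cells. Taken as AT2 RNA, as for AT1-like cells above, it would bring 13.4 of the 28 Kcnj15 UMIs. It would also bring 1.74 of the 14 Rbm24 and 1.997 of the 29 Rassf2 UMIs. The part of free RNA in these counts was not tested. Kcne2 and Ociad2 stayed at or below 5.73 and 10.1 CPM in every class outside the epithelium.

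In order of level, Rbm24 had its top value in ciliated-like cells of both libraries. AT2-like, smooth muscle-like, AT1-like and club-like cells followed in the Cre library, each overlapping the next from the top down. In the control library smooth muscle-like cells followed and overlapped ciliated-like cells, so these 2 are not ordered, and club-like cells came next without overlap. For Kcne2 the order was AT1-like, AT2-like and ciliated-like in the Cre library, the first pair overlapping, and ciliated-like, AT2-like and AT1-like in the control library, the first pair again overlapping. Kcnj15 ran in the order AT2-like, club-like and AT1-like in the Cre library, with no overlap.

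**Figure D3:**
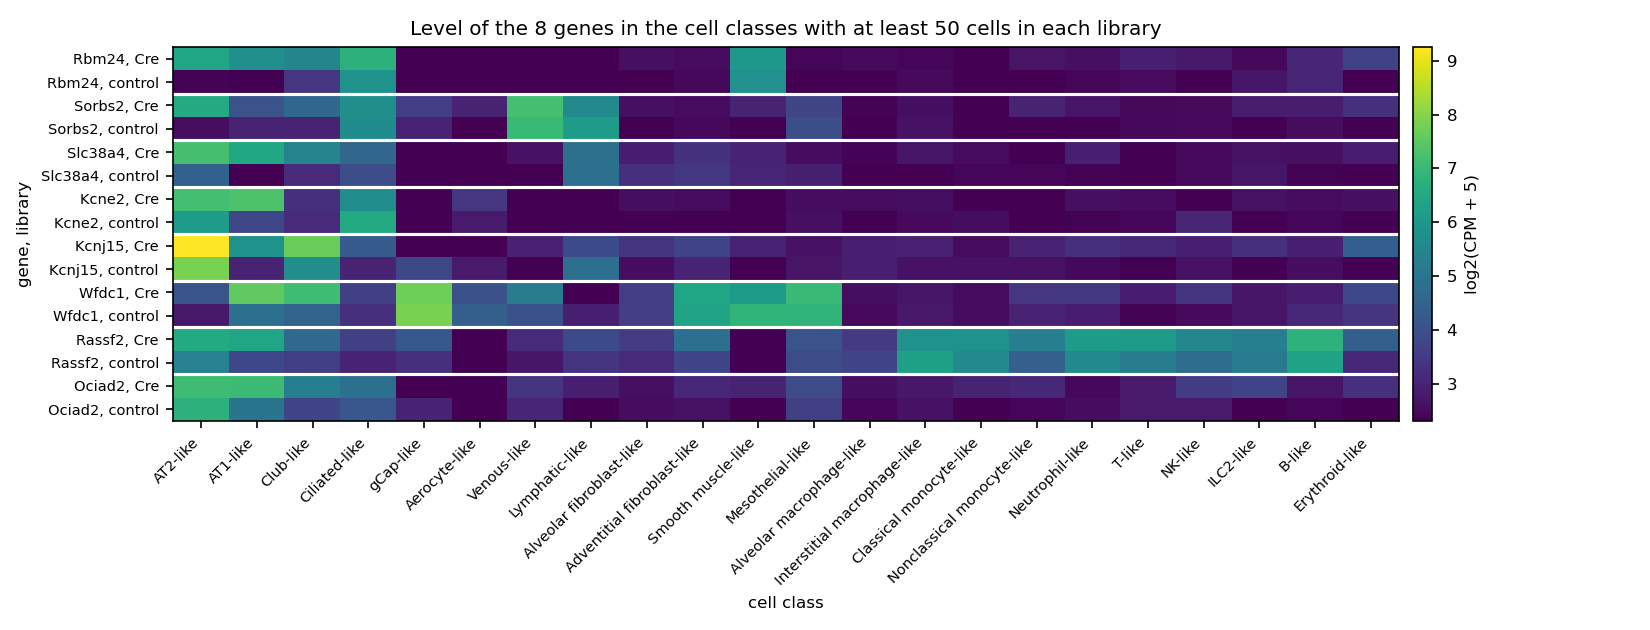
Level of each gene, as log2(CPM + 5) in colour, in the 22 cell classes (columns), with a Cre row above a control row for each gene. Rbm24 in AT2-like cells stood at 78.6 CPM in the Cre row and 0.214 CPM in the control row, while Wfdc1 in general capillary-like (gCap) cells stood at 206 and 229 CPM.

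Of all Rbm24 UMIs in kept cells, 68.1% lay in AT2-like cells of the Cre library and 2.08% in those of the control library. For Sorbs2 the shares were 72.7% and 5.00%. AT2-like cells held 19.8% of all UMIs of the Cre and 20.3% of those of the control library, so the share of the class was close in both. For Kcnj15, 82.6% of its UMIs lay there in the Cre and 87.1% in the control library. For Ociad2 the shares were 76.8% and 90.4%. Club-like cells held 36.4% of the Wfdc1 UMIs of the Cre library and 12.4% of those of the control library.

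Single AT2-like cells were compared after each was thinned to 3000 UMIs, which left 1635 Cre and 1268 control cells and dropped 162 and 197 shallower ones. Rbm24 had a UMI in 17.9% of Cre cells (16.1% to 19.9%) and 0.0789% of control cells (0.00200% to 0.439%). For Sorbs2 the shares were 21.1% and 0.237%, and for Slc38a4 32.7% and 4.57%. Kcnj15 was found in 73.1% of Cre and 45.3% of control cells, Kcne2 in 32.5% and 17.3%, and Rassf2 in 25.3% and 10.0%. Wfdc1 was found in 3.12% and 0.710%, and Ociad2 in 31.4% and 27.0%. Without thinning, the Rbm24 shares were 32.8% and 0.205%, and the Ociad2 shares 58.3% and 57.1%.

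B cell-like cells, at medians of 2020 Cre and 3077 control UMIs, were set beside AT2-like cells as a reference for free RNA. They are an imperfect one. In the control library Rbm24 stood at 3.28 CPM (2.06 to 4.97) in B cell-like and 0.731 CPM (0.199 to 1.87) in T cell-like cells. For Wfdc1 the values were 3.73 CPM (2.41 to 5.51) and 0.183 CPM (0.00463 to 1.02). The part of free RNA in these levels was not tested. At 1000 UMIs per cell the share with an Rbm24 UMI was 7.64% in Cre AT2-like cells, with 0 of 1373 control AT2-like cells (which allows up to 0.218%). It was 0.202% in Cre and 0.563% in control B cell-like cells, so the control AT2-like share is not above that of B cell-like cells. For Wfdc1 the AT2-like shares were 1.39% in Cre and 0.0728% in control cells, against 0.337% and 0.338% in B cell-like cells. Rassf2 cannot be read this way, since B cells express it.

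A Cre AT2-like cell held on average 2.37 of the 8 genes (SD 1.2497 over cells), and a control cell 1.05 (SD 0.862). None of the 8 was found in 4.53% of Cre and 28.6% of control cells, and 3 or more in 43.3% and 5.68%. If the genes were found independently of one another, the SD would be 1.18 in Cre and 0.855 in control cells. All 8 were found in 0 cells and 7 in 2 Cre cells. Club-like cells thinned in the same way held on average 1.23 of the genes in the Cre and 0.247 in the control library.

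**Figure D4:**
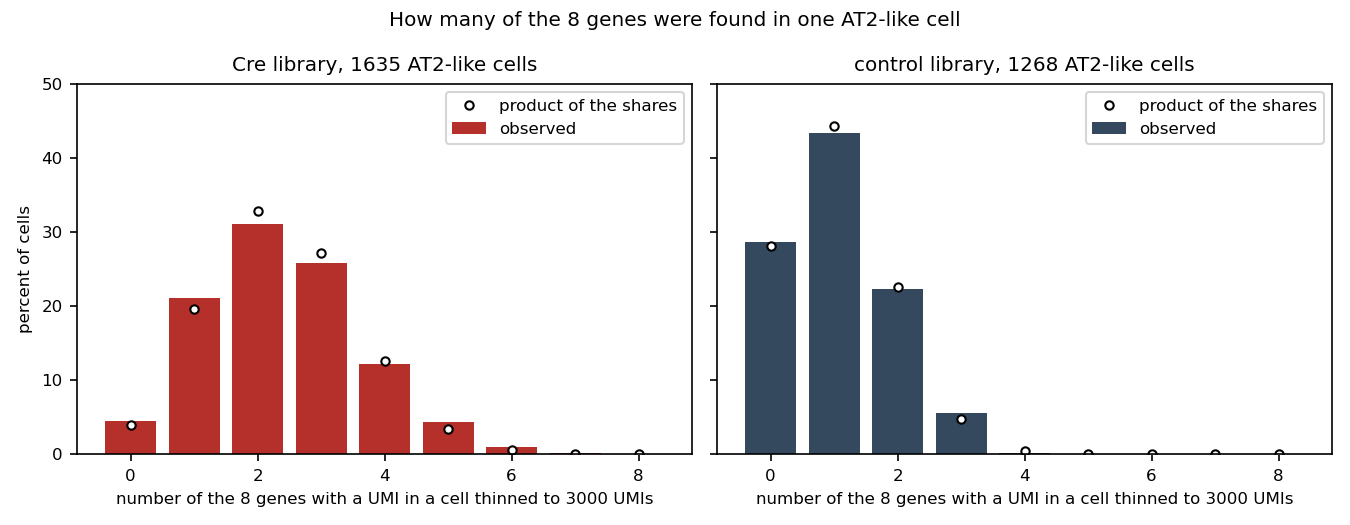
Percent of AT2-like cells, each thinned to 3000 UMIs, by how many of the 8 genes had a UMI, in the Cre (left) and control library (right). Bars are observed shares and circles are what the product of the single-gene shares gives; Cre cells centre on 2 genes (31.1%) and control cells on 1 gene (43.4%).

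Over the 28 pairs of genes, the share of Cre AT2-like cells with both was a median of 1.04 times the product of the single shares, with 22 pairs above 1. These ratios ran between 0.776 and 1.57. Rbm24 and Sorbs2, the genes with the lowest CPM in control cells, were found together in 68 cells, against 61.8 from the product, a ratio of 1.10 (0.854 to 1.39). The interval lay above 1 for Kcne2 with Rassf2, at 1.24 (1.05 to 1.44), and for Kcne2 with Wfdc1, at 1.57 (1.02 to 2.30). It lay below 1 for 0 pairs.

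Sox9, a transcription factor of the distal lung epithelium of the embryo, had a UMI in 518 of the thinned Cre AT2-like cells. Sorbs2 stood at 119 CPM in cells with a Sox9 UMI and 74.6 CPM in the 1117 without one, a ratio of 1.60 (1.31 to 1.94), and Rassf2 at 115 and 83.6 CPM, a ratio of 1.37 (1.13 to 1.66). Smaller ratios with intervals above 1 were those of Ociad2, 1.21 (1.03 to 1.42), Kcnj15, 1.17 (1.08 to 1.26), and Slc38a4, 1.17 (1.004 to 1.36). Wfdc1 had a ratio of 0.663 (0.354 to 1.18). Rbm24 stood at 80.4 and 82.1 CPM, a ratio of 0.980 (0.787 to 1.22), and Kcne2 at 157 and 153 CPM. Rbm24 thus stood far above the 0.214 CPM of control cells both with and without a Sox9 UMI.

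Retnla, which encodes a resistin-like secreted protein, had a UMI in 1378 of the thinned Cre AT2-like cells and not in 257. Sorbs2 stood at 93.9 CPM with and 61.0 CPM without it, a ratio of 1.54 (1.14 to 2.13), and Kcnj15 at 627 and 422 CPM, a ratio of 1.49 (1.32 to 1.67). Kcne2 ran the other way, at 145 CPM with and 208 CPM without, a ratio of 0.697 (0.585 to 0.835), as did Slc38a4, at 152 and 189 CPM, a ratio of 0.802 (0.669 to 0.967). The 39 cells with a UMI of the proliferation gene Mki67 held 2 Rbm24 UMIs, a ratio of 0.206 (0.0248 to 0.748) to the other cells. Kcnj15 was also lower in them, at 444 CPM against 598 CPM, a ratio of 0.743 (0.553 to 0.977). The intervals of the remaining genes include 1. In the 141 cells with a Stk11 UMI, Slc38a4 stood at 208 CPM, against 153 CPM in the others, a ratio of 1.36 (1.08 to 1.70), and the intervals of the other 7 genes include 1, with Rbm24 at 99.3 and 79.9 CPM, a ratio of 1.24 (0.881 to 1.71).

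Levels also moved with the depth of a cell. In 3 groups of 599 Cre AT2-like cells by UMIs, from shallow to deep, Slc38a4 stood at 191, 169 and 107 CPM and Rassf2 at 111, 99.9 and 76.1 CPM. Kcnj15 stood at 520, 559 and 664 CPM. Rbm24 stood at 70.1, 82.6 and 79.0 CPM. In 3 such groups of control cells by their own depth Slc38a4 stood at 19.7, 16.8 and 16.6 CPM, below each Cre group.

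The genes beside the members on the chromosome were taken by order of start, 2 protein-coding genes on either side, from GENCODE M21 on GRCm38. Of 32 such neighbours 18 reached 50 UMIs in AT2-like cells, and 3 were at least 2-fold higher in Cre cells and 0 at least 2-fold lower, against the 6.80% and 1.89% of all genes. They were Cap2 beside Rbm24, Pdlim3 beside Sorbs2 and Slc5a3 beside Kcne2. Cap2, which encodes a regulator of actin turnover known from muscle, lies 70.8 kb from Rbm24. It stood at 43.3 CPM (638 UMIs) in Cre and 0.499 CPM (7 UMIs) in control AT2-like cells, a ratio of 86.7 (41.8 to 217). Rbm24 and its neighbour thus both stood near 0 in control AT2-like cells.

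In AT1-like cells Cap2 stood at 69.9 CPM in Cre and 21.1 CPM in control cells, a ratio of 3.31 (1.51 to 8.59), and in club-like cells at 9.75 and 0.709 CPM, a ratio of 13.8 (5.56 to 44.0). Pdlim3, a PDZ and LIM domain protein of muscle, lies 57.6 kb from Sorbs2. It stood at 6.10 CPM in Cre and 1.28 CPM in control AT2-like cells, a ratio of 4.76 (2.85 to 8.39), but at 33.7 CPM in Cre and 78.5 CPM in control AT1-like cells, a ratio of 0.430 (0.243 to 0.763). Slc5a3, a myo-inositol transporter gene, lies 205 kb from Kcne2, and its ratio in AT2-like cells was 3.97 (3.30 to 4.81).

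Some neighbours lie closer. Smim11, 3.16 kb from Kcne2, had a ratio of 0.961 in AT2-like cells, and Ociad1, the paralogue 8.13 kb from Ociad2, a ratio of 1.40. The transporter paralogues Slc38a2 and Slc38a1, the neighbours of Slc38a4 on one side, had ratios of 1.21 and 1.24.

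**Figure D5:**
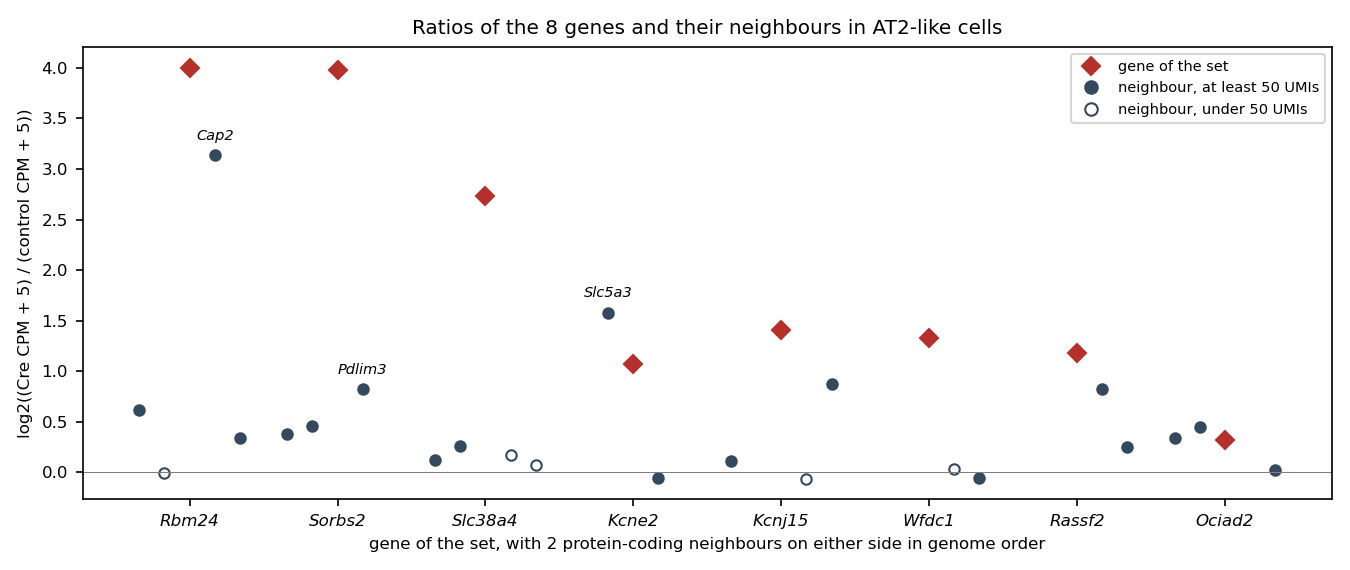
Log2 ratio of Cre over control with 5 CPM added in AT2-like cells, for each of the 8 genes (red diamonds) and 2 protein-coding neighbours on either side in genome order (circles, open under 50 UMIs; neighbours with no UMI are not drawn). Cap2 beside Rbm24 stood at 3.13, next to 4.003 for Rbm24 itself, and Slc5a3 beside Kcne2 at 1.58, next to 1.07 for Kcne2.

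Relatives of the members by family or pathway, from 13 lists, were counted in AT2-like cells. The median log2 ratio of the measured list members other than the 8 was 1.18 for the CREB and CRTC list and -1.60 for the muscle list, and between 0.10 and 0.77 for the other lists, against 0.17 over all genes. Each count of genes below leaves out the 8 and is set against the 6.80% of all genes at least 2-fold higher. Of the other tissue-restricted splicing regulators 0 of 10 measured were at least 2-fold higher, of the OCIA domain and complex III genes 0 of 10, of the gastric acid secretion genes 0 of 5 and of the Kir family 0 of 2. Of the KCNE and KCNQ list only 1 other gene was measured, and it was not higher.

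Among amino acid transporters 1 of 9 was higher, Slc1a4, at 3.05 CPM in Cre and 1.28 CPM in control cells, and among RASSF and MST genes 1 of 16, Rassf10, at 4.27 and 0.998 CPM. Among adhesion adaptors 1 of 13 was higher, the actin-associated Palld, at 3.86 and 1.496 CPM. All 3 were below 5 CPM in both libraries. Of 4 other WAP domain genes 2 were higher. Slpi, the secretory leukocyte protease inhibitor, stood at 381 CPM in Cre and 75.3 CPM in control cells, a ratio of 5.06 (4.74 to 5.41), and Wfdc17 at 20.5 and 5.99 CPM, a ratio of 3.43 (2.69 to 4.42).

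Of the 4 cardiac and skeletal muscle genes measured in AT2-like cells 0 were higher and 4 were at least 2-fold lower in Cre cells. Cox6a2, a muscle subunit of cytochrome oxidase, stood at 24.0 CPM in Cre and 233 CPM in control cells, a ratio of 0.103 (0.0919 to 0.115). It was also 1 of the 5 plasmacytoid dendritic cell markers used here, which summed to 77.8 CPM in Cre and 278 CPM in control AT2-like cells. Myh7, the slow myosin heavy chain, stood at 8.75 CPM in Cre and 80.7 CPM in control cells, a ratio of 0.108 (0.0896 to 0.130). Ttn and Ryr2 were below 5 CPM in both libraries.

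Of the other imprinted genes 2 of 13 were higher, Meg3 at 41.7 CPM in Cre and 12.7 CPM in control cells and Nnat at 74.3 and 30.5 CPM, and Snrpn was lower at 1.97 and 5.20 CPM. Of the other thyroid hormone genes 1 of 3 was higher, the anion exchanger Slc26a4, at 260 CPM in Cre and 8.69 CPM in control cells, a ratio of 29.9 (24.9 to 36.1). Of the CREB and CRTC induced genes 8 of 14 were higher. Pde10a, a cyclic nucleotide phosphodiesterase, had 345 UMIs in Cre and 0 in control cells, at least 109-fold higher, and the growth factor Areg stood at 458 CPM in Cre and 99.1 CPM in control cells.

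The genes with the most similar pattern were found by Pearson correlation of log2(CPM + 5) over 45 profiles of a class in a library. The profiles share libraries and the 8 genes were picked for a shared difference, so the correlations are descriptions. Rbm24 was most like Ppargc1a (r = 0.81), a transcriptional coactivator of mitochondrial genes, which stood at 47.4 CPM in Cre and 10.3 CPM in control AT2-like cells, then Arc (0.78) and Ptprz1 (0.78). Kcnj15 was most like Chia1 (0.91), an acidic chitinase, at 910 CPM in Cre and 284 CPM in control AT2-like cells, then Tmem213 (0.90) and the potassium channel Kcnk1 (0.89). Kcne2 and Ociad2 were both most like Plekhd1 (0.92 each) and also shared Irx2 (0.91 and 0.92), an Iroquois transcription factor.

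Slc38a4 was most like its fellow member Kcnj15 (0.83), then Nexmif (0.82) and Gm26894 (0.81). Sorbs2 was most like Itgb4 (0.85), Mall (0.84) and Megf6 (0.79), of which Megf6 stood lower in Cre AT2-like cells, at 26.4 CPM, than in control cells, at 48.3 CPM. Wfdc1 was most like Sema3c (0.77), Lama5 (0.72) and Lurap1l (0.72), and Rassf2 like the leukocyte gene Arhgap45 (0.75), Ttc7 (0.73) and Slc16a6 (0.71). Slc16a6, a monocarboxylate transporter family member, stood at 28.8 CPM in Cre and 1.78 CPM in control AT2-like cells. Among the 8, the pair most alike was Kcne2 with Ociad2 (0.85), and Rassf2 with Wfdc1 the least (-0.32).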

How the data were processed

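UMI counts per gene and barcode were used as deposited by the authors, raw whole numbers with no normalization, per the file headers. Per the submitters' processing notes, Cell Ranger 3.1.0 and STAR were used with mm10. No source used here gives the gene annotation, the cell filters or whether doublets were removed. No barcode held under 500 UMIs.

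Cells with at least 200 genes and at most 20% mitochondrial UMIs were kept, less Scrublet doublets (scanpy 1.11.5, rate 0.06; 2.70% of Cre and 3.09% of control barcodes), leaving 14675 Cre and 12455 control cells. A cell took the class with the highest mean scaled marker level, at 0.25 or more with 3 or more markers detected and a margin over the next class. This named 85.0% of Cre and 87.1% of control cells, and 94.8% of cells also named by Leiden clusters (leidenalg 0.10.2) had the same name. UMIs were summed per class and library as CPM. A gene was called at a 2-fold ratio with 50 UMIs over both libraries. Intervals are exact (Poisson, Clopper-Pearson, conditional ratio), and the ratio code was tested on simulated data. Free RNA was not subtracted in the main values.

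The 8 genes, the marker and gene lists and the rule for named genes (at most 4 per list by ratio, the 3 most correlated genes per member, and 2 neighbours on either side) were chosen with earlier results of these data known. Alternatives are given in the closing section.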

Additional observations from a re-analysis of the deposited data

Results flagged for a closer look

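Kcne2 in ciliated-like cells stood out because its ratio of Cre over control, 0.532 (0.335 to 0.830), lay below 1 while its ratios in AT2-like and AT1-like cells lay above 1. Rassf2 in interstitial macrophage-like cells stood out in the same way, at 0.726 (0.570 to 0.927), beside ratios above 1 in alveolar epithelium, club-like and B cell-like cells. With 1 pooled library per genotype the difference between classes was not tested.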

How the results depend on the processing

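The median log2 ratio over the 8 genes stayed above 0 in AT2-like, AT1-like, club-like and B cell-like cells under every alternative run for each, and in ciliated-like cells too except with each cell thinned to 1000 UMIs, where it was 0. In AT2-like cells it moved to 1.58, from 1.37, with such thinning and to 1.81 with a pseudocount of 1. With that pseudocount it moved to 2.17 in club-like cells, from 1.76, and to 0.67 in B cell-like cells, from 0.25. Of 392 values under an alternative 330 stayed within counting error and 61 moved beyond it. The other 1 changed sign from a main ratio whose interval lay above 1: Rassf2 in club-like cells at 1000 UMIs per cell, at -0.19. Sorbs2 in AT1-like and Kcne2 in club-like cells, whose intervals include 1, also went below 0 there, at -0.94 and -0.70, and Kcne2 was at -0.23 in club-like cells without the 50 genes with most UMIs. The causes were not tested. Subtracting B cell-like CPM brings Rassf2 to 0 by construction, since B cells hold more of it. Leaving out barcodes found in both libraries was added after seeing the data. No paired analysis was possible because there was 1 library per genotype. Sparse AT1-like counts limit Rbm24, Sorbs2 and Kcnj15 there.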
